A study of Mus musculus with 12 samples.

Results

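Described here are 10 genes of cytokine signalling in CD8 T cells of mouse spleen: the kinases Jak1, Jak2 and Jak3, the transcription factors Stat3, Stat4, Stat5a and Stat5b, and the inhibitors Socs1, Socs3 and Cish. They were chosen by symbol, and all 10 were found among the 24421 genes of the authors' deposited table. All 10 carried an adjusted p-value, as did 12972 of the 24421 genes. The study asks what loss of H1 linker histones, the proteins that bind the nucleosome and compact chromatin, does to gene expression in lymphocytes. B and T lymphocytes of C57BL/6 mice were sorted by flow cytometry (B cells, CD4 and CD8 T cells), and polyadenylated RNA was sequenced in 12 samples that form 6 groups of 2 animals. The comparison is between 2 wild-type animals (WT, 1 female and 1 male) and 2 animals labelled cTKO (1 female and 1 male), in which the H1 genes Hist1h1c, Hist1h1d and Hist1h1e had 0 recovered reads. The sign of the fold changes was read from these genes, so they are no separate check of the labels. The age of the animals, what drives the deletion and any treatment are not given in these sources. The B cell and CD4 T cell samples were not used here.

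Cytokines such as interleukin-2, interleukin-7, interleukin-15 and interleukin-12 bind receptors with no enzyme activity of their own. Jak kinases held by the receptor tails become active, phosphorylate the receptor and the Stat proteins that dock there, and the Stat proteins enter the nucleus as dimers and bind DNA. The genes they switch on include those of the Socs proteins and Cish, which dampen the same receptors. In CD8 T cells the interleukin-2, interleukin-7 and interleukin-15 receptors work through Jak1, Jak3 and Stat5 and serve survival and expansion, and the interleukin-12 receptor works through Jak2, Tyk2 and Stat4 and serves effector differentiation.

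The whole reads of each library were solved from the authors' means, fold changes and standard errors and divided by each library's size factor (normalised reads). They are given in the order larger WT, smaller WT, larger cTKO and smaller cTKO library, which held 20120859, 13446343, 17312030 and 12332298 recovered reads. Most Xist reads lay in the larger library of each genotype (479, 2, 4871 and 28 reads), which goes with the female animal of that genotype, so a library's size cannot be told apart from the animal's sex. The larger cTKO library stood apart: 1165 genes had a single read there and none elsewhere, against 97 to 156 in each of the others. Markers of CD8 T cells were present in every library, with at least 15368 normalised reads of Cd8a and 11084 of Cd3e, and Cd4 had at most 4.6.

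Among the 10 genes, Cish alone passed the authors' test of a difference between the genotypes. By the authors' deposited table Cish was 12.4-fold higher in cTKO CD8 T cells, at a log2 fold change of 3.63 with an SE of 0.34 and an adjusted p of 1.80e-24. The other 9 members had log2 fold changes between -0.53 and 0.45 by the authors' deposited table, and their adjusted p-values lay between 0.243 and 0.986. One of 10 members was thus called, at an adjusted p under 0.05, beside 13.4% of all tested genes (9.77% higher and 3.61% lower). The median log2 fold change was 0.060 over the 10 members and 0.039 over all tested genes by the authors' deposited table.

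**Figure D1:**
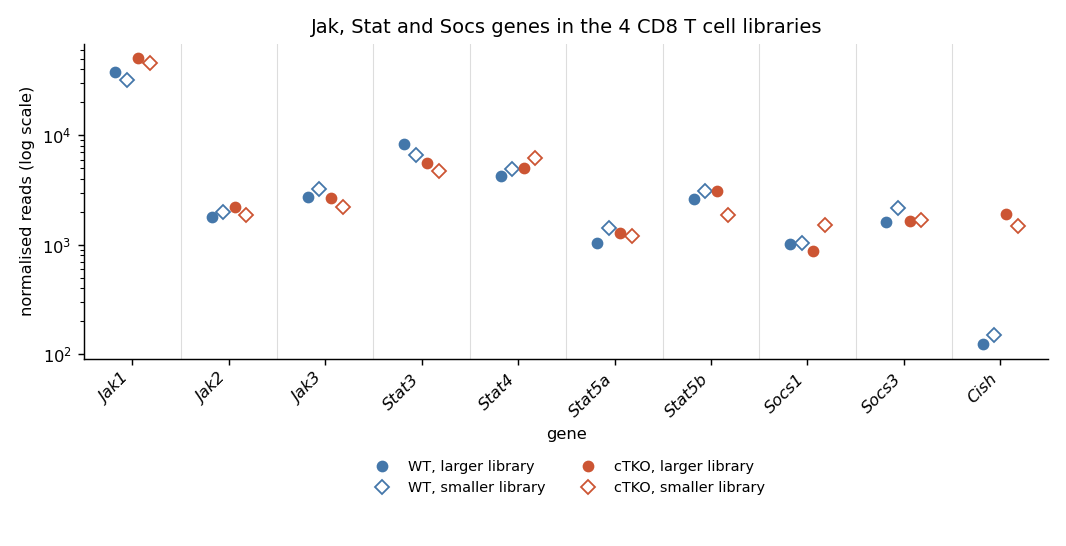
Normalised reads of the 10 Jak, Stat and Socs genes (vertical axis, log scale) in each of the 4 CD8 T cell libraries, blue for WT and red for cTKO, filled circles for the larger and open diamonds for the smaller library. Cish has 123 and 150 normalised reads in WT against 1891 and 1476 in cTKO, while the points of the other 9 genes lie close together.

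Cish codes for a protein of the Socs family that binds phosphorylated receptor tails and is a classical target of Stat5. It had 149 and 130 reads in the WT libraries and 2283 and 1188 in the cTKO libraries, or 123, 150, 1891 and 1476 normalised reads. The cTKO libraries both lay far above the WT libraries, and the libraries of one genotype differed from each other by at most 1.28-fold. The 95% interval of the fold change reached from 7.84-fold to 19.5-fold, computed from the SE of the authors' deposited table. Between the larger libraries Cish was 15.4-fold higher in cTKO, and between the smaller ones 9.83-fold. It ranked as number 22 of all tested genes by p-value, and as number 21 among the higher ones, by the authors' deposited table. In a limma fit on the recovered reads the log2 fold change was 3.61 with an adjusted p of 0.000145. Without the larger cTKO library it was 3.43 with an adjusted p of 0.101, and without the smaller one 3.79 with an adjusted p of 0.0687. These fits, with 1 cTKO library taken to vary like the WT libraries, called 1.26% and 2.07% of all genes, against 10.3% with all 4 libraries. Without the larger or the smaller WT library, where 5.34% and 6.16% of genes were called, Cish passed with adjusted p-values of 0.000489 and 0.000272.

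Cish lies on chromosome 9 (107296659 to 107302784, plus strand, GRCm38.p6), and Socs3 on chromosome 11 (117966079 to 117970336, minus strand). Stat dimers bind palindromes of the form TTCNNNGAA, and this motif, which reads the same on both strands, was searched in the RefSeq promoter windows of the 10 genes (300 bases, from 250 before to 50 after a start). Cish was the only member with 2 matches, at bases 1 and 12 from its RefSeq start, and Socs3 had 1 match, which begins 154 bases before the start its window uses. That start, at base 117969366, lies inside the Socs3 gene as given above, and so does the match. The 30 bases around these matches are shown because they set the called inhibitor beside the uncalled one. Capitals mark the matches, and both are written 5′ to 3′ on the gene's strand.
Cish, chr9:107296654-107296683, plus strand: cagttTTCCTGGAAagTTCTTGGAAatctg
Socs3, chr11:117969502-117969531, minus strand: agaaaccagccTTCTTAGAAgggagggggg
The windows of Jak1, Jak2, Jak3, Stat3, Stat4, Stat5a, Stat5b and Socs1 held no match. Of 32851 RefSeq windows of this length, 8.30% held at least 1 match and 0.457% at least 2. Among tested genes with a window, 13.0% of the 54 with 2 or more matches were called higher and 3.70% lower, beside 9.34% and 3.58% of the 9485 with none. Their median log2 fold changes were -0.26 and 0.0256 by the authors' deposited table, so the medians and the shares called higher differed in opposite directions. Cish itself is 1 of the 7 genes with 2 or more matches that were called higher, so that share is not independent of it. GENCODE vM21 also lists a Cish transcript that starts upstream of the RefSeq start. A match is a description of the letters, and binding was not measured here.

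Socs1 and Socs3, the inhibitors that block Jak kinases most directly, did not pass the test. Socs1, which restrains interleukin-2, interleukin-15 and interferon gamma signals in T cells, had 1010 and 1028 normalised reads in WT against 879 and 1509 in cTKO. The smaller cTKO library was the highest and the larger the lowest, so the groups overlapped. By the authors' deposited table its log2 fold change was 0.23 (SE 0.35, adjusted p = 0.727). Socs3, which acts on receptors of the gp130 family and on Stat3 signalling, had 1604 and 2185 in WT against 1631 and 1684 in cTKO. Both cTKO values lay between the WT values, with a log2 fold change of -0.19 by the authors' deposited table (SE 0.31, adjusted p = 0.744).

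Of the rest of the Socs family, Socs2 rose as well and the others did not pass. Socs2, a Stat5 target known for restraining growth hormone signals, had 23.1 and 9.2 normalised reads in WT against 113 and 420 in cTKO. All cTKO values exceeded all WT values, but the cTKO libraries differed 3.70-fold from each other. By the authors' deposited table Socs2 was 16.2-fold higher, at a log2 fold change of 4.02 with an SE of 0.65 and an adjusted p of 4.30e-08. Without the larger or the smaller cTKO library the limma fit gave log2 fold changes of 4.75 and 2.87. Without the larger or the smaller WT library it gave 4.42 and 3.19. Socs4, Socs5, Socs6 and Socs7 had log2 fold changes between -0.48 and 0.67 by the authors' deposited table. Over the 8 genes of the family, Cish held 3.26% and 3.40% of the normalised reads in WT and 33.8% and 24.5% in cTKO, a share of reads that also depends on transcript length. The summed reads of the family were 3770 and 4419 in WT against 5589 and 6020 in cTKO.

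**Figure D2:**
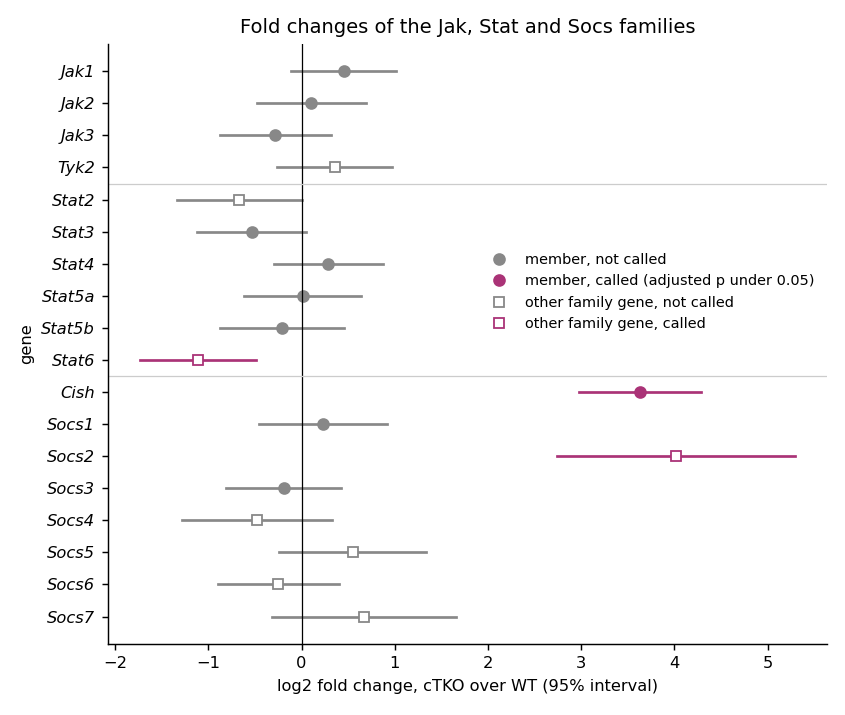
Log2 fold changes, cTKO over WT, from the authors' deposited table, with 95% intervals as lines, for 18 genes of the Jak, Stat and Socs families; filled circles are the 10 members, open squares the other family genes, and purple marks an adjusted p under 0.05. Cish and Socs2 lie at 3.63 and 4.02, Stat6 lies at -1.11, and the intervals of the other 15 genes include 0.

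The 4 Stat members did not pass the test. Stat3, which carries interleukin-6, interleukin-10 and interleukin-21 signals, had 8284 and 6613 normalised reads in WT against 5540 and 4763 in cTKO. Each cTKO library lay below each WT library, and the log2 fold change by the authors' deposited table was -0.53 (SE 0.30, adjusted p = 0.243). Stat4, the mediator of interleukin-12, had 4246 and 4956 in WT against 5044 and 6184 in cTKO. Here the cTKO libraries lay above both WT libraries by a narrow margin, with a log2 fold change of 0.29 by the authors' deposited table (SE 0.30, adjusted p = 0.581).

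Stat5a and Stat5b, the near-identical factors of interleukin-2, interleukin-7 and interleukin-15 signalling, overlapped between the genotypes. Stat5a had 1040 and 1420 normalised reads in WT against 1290 and 1191 in cTKO. Its log2 fold change was 0.013 by the authors' deposited table (SE 0.32, adjusted p = 0.986), with a 95% interval from -0.61 to 0.64. Stat5b had 2638 and 3068 in WT against 3089 and 1852 in cTKO, so the lowest and the highest library were both cTKO. Its log2 fold change was -0.21 by the authors' deposited table (SE 0.34, adjusted p = 0.745), with a 95% interval from -0.87 to 0.46. Of all 50-base stretches of the Stat5a transcripts in GENCODE vM21, 14.7% also occur in Stat5b, and 11.1% of those of Stat5b occur in Stat5a, so how reads there were shared out can affect both.

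Stat6, which is not among the 10, fell. Stat6, the factor of interleukin-4, had 13244 and 8662 in WT against 5193 and 4982 in cTKO, with a log2 fold change of -1.11 by the authors' deposited table (SE 0.32, adjusted p = 0.00647). Without any 1 of the 4 libraries the limma fit gave Stat6 adjusted p-values from 0.103 to 0.558. Stat2 had a log2 fold change of -0.67 by the authors' deposited table (adjusted p = 0.197).

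The 3 Jak members did not pass either. Jak1, the kinase that most receptors of this list share, had 38119 and 32276 normalised reads in WT against 50546 and 45937 in cTKO. Both cTKO libraries exceeded both WT libraries, and the log2 fold change by the authors' deposited table was 0.45 (SE 0.29, adjusted p = 0.313). Jak2, which serves the interleukin-12 and interferon gamma receptors, had 1806 and 1973 in WT against 2217 and 1851 in cTKO, which overlap. Its log2 fold change was 0.11 by the authors' deposited table (SE 0.30, adjusted p = 0.859).

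Jak3, which binds the common gamma chain, had 2703 and 3222 normalised reads in WT against 2658 and 2220 in cTKO. The larger cTKO library lay just under the larger WT library, and the log2 fold change was -0.28 by the authors' deposited table (SE 0.30, adjusted p = 0.598). Tyk2, the remaining kinase of the family, had a log2 fold change of 0.36 by the authors' deposited table (adjusted p = 0.4999). With 2 animals per genotype the 95% intervals of the 9 uncalled members reached from a 2.17-fold decrease to a 2.02-fold increase.

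Of the 10 members, 5 had groups that did not overlap, with Cish, Jak1 and Stat4 higher in both cTKO libraries, and Stat3 and Jak3 lower. With 2 libraries a side this is common, since 31.2% of all tested genes with recovered reads were higher and 28.4% lower by the same measure. It therefore sets no member apart.

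**Figure D3:**
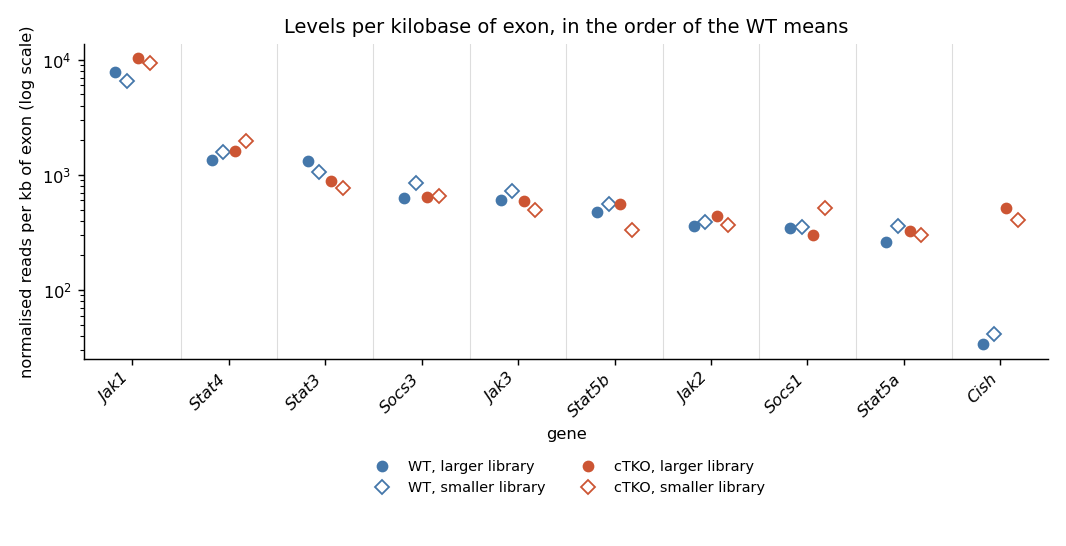
Normalised reads per kilobase of exon (vertical axis, log scale) of the 10 genes in the 4 libraries, ordered by the WT mean, blue for WT and red for cTKO. Jak1 leads in both genotypes, and Cish moves from the lowest place in WT, at 33.6 and 41.2, to the middle in cTKO, at 519 and 405.

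Levels were compared between genes per kilobase of exon, with the merged exons of GENCODE vM21. Jak1 was the most abundant in both genotypes, with means of 7174 normalised reads per kilobase in WT and 9833 in cTKO. In WT it was followed by Stat4 (1462), Stat3 (1196), Socs3 (742), Jak3 (663), Stat5b (515), Jak2 (376), Socs1 (350), Stat5a (310.0) and Cish (37.4). Within this order the WT libraries of Socs3 and Jak3 overlapped, as did those of Socs1 and Stat5a, while the other neighbours did not. In cTKO the first 5 places were the same and Cish came sixth, with 462 per kilobase. The cTKO libraries of Cish overlapped those of Jak3 above it and of Stat5b, Socs1 and Jak2 below it, and the lowest place went to Stat5a with 313.

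Reads of some members cannot be separated from overlapping genes, since the handling of strand and of shared exons is not given in these sources. Exons of Gm17040 and Gm17041 lie opposite 582 of the 3647 exon bases of Cish. Gm28177 shares 1033 exon bases with Stat4 on the same strand, and Insl3 shares 404 with Jak3. Stat5b, Stat5a and Stat3 are neighbours on chromosome 11, and the ends of Stat5a and Stat3 overlap by 72 exon bases.

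Other genes of the pathway were taken from 7 lists, chosen with earlier results of these data known. Their counts stand beside 9.77% called higher and 3.61% lower among all tested genes. Of their called genes named here, 24 entered the limma fit, and all 24 lost the call without the larger cTKO library, and again without the smaller one. Without the larger WT library 14 lost it, and without the smaller WT library 11. Such fits leave 1 library in a genotype and called fewer of all genes than the fit with all 4 libraries. These losses therefore do not by themselves set the listed genes apart. Of the 24, Bcl2, Il2rg and Ptpn6 had already lost the call in limma with all 4 libraries. Of the 15 further regulators (Pias proteins, phosphatases and adaptors), 1 fell and 14 did not pass, with a median log2 fold change of 0.26 by the authors' deposited table. The one that fell was Ptpn6, the phosphatase SHP-1, with 14628 and 13346 normalised reads in WT against 6141 and 8541 in cTKO. Its log2 fold change was -0.93 by the authors' deposited table (SE 0.30, adjusted p = 0.0223), and its adjusted p in the limma fit was 0.0665.

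Of 25 tested receptor chains that signal through Jak kinases, 5 rose, 3 fell and 17 did not pass. Among all tested genes 9.77% were called higher and 3.61% lower. The receptor chains for interleukin-2 and interleukin-15 moved in opposite directions. Il2rb, the beta chain that both cytokines use, rose 2.85-fold by the authors' deposited table (SE of the log2 fold change 0.29, adjusted p = 4.61e-06), from 10365 and 11976 normalised reads to 33033 and 30709. Il15ra, which presents interleukin-15, rose from 309 and 334 to 671 and 680, with a log2 fold change of 1.07 by the authors' deposited table (adjusted p = 0.0140). Il2rg, the common gamma chain that holds Jak3, had 100535 and 52043 in WT against 25288 and 37937 in cTKO, with a log2 fold change of -1.27 by the authors' deposited table (adjusted p = 0.00751). The libraries of one genotype differed widely here, and the limma fit gave Il2rg an adjusted p of 0.0720.

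The other chains that pair with the common gamma chain did not pass. Il7r, the interleukin-7 receptor, had 12534 and 10427 normalised reads in WT against 20098 and 18704 in cTKO, with a log2 fold change of 0.76 by the authors' deposited table (adjusted p = 0.0604), and passed when fold changes were re-centred (adjusted p = 0.0261). Il4ra and Il21r had log2 fold changes of -0.29 and -0.36 by the authors' deposited table. Il2ra, the alpha chain of activated cells, was low, with 49.4, 39.3, 90.3 and 18.6 normalised reads. Il9r had at most 25.7.

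**Figure D4:**
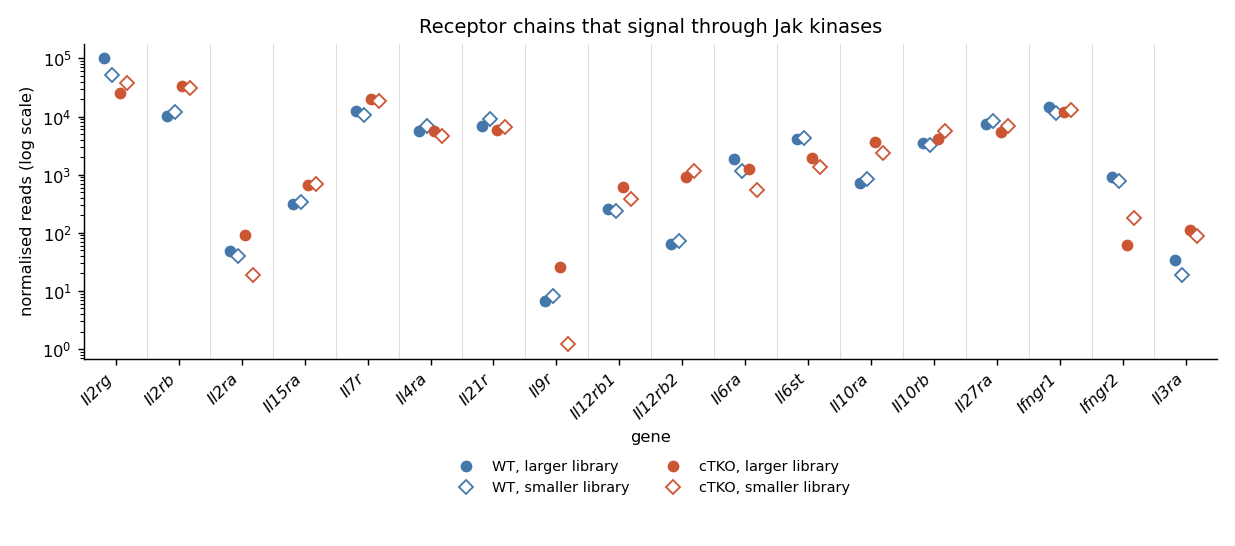
Normalised reads (vertical axis, log scale) of 18 receptor chains in the 4 libraries, blue for WT and red for cTKO, filled circles for the larger and open diamonds for the smaller library. Il2rb, Il15ra, Il12rb2, Il10ra and Il3ra are higher in cTKO, Il2rg, Il6st and Ifngr2 are lower, and Il2ra and Il9r are low and spread.

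Outside the common gamma chain family, Il12rb2 showed the receptor list's smallest p-value. This signalling chain of the interleukin-12 receptor, which engages Jak2 and Stat4, had 64.2 and 71.6 normalised reads in WT against 916 and 1155 in cTKO. By the authors' deposited table it was 15.3-fold higher, at a log2 fold change of 3.93 with an SE of 0.36 and an adjusted p of 2.25e-25. Il12rb1, its partner, had a log2 fold change of 0.98 by the authors' deposited table (adjusted p = 0.0681).

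Il10ra, the ligand-binding chain of the interleukin-10 receptor, had 707 and 842 normalised reads in WT against 3669 and 2343 in cTKO, with a log2 fold change of 1.96 by the authors' deposited table (adjusted p = 2.60e-07). Il3ra rose from a low level, 33.8 and 18.5 to 110 and 89.4, with a log2 fold change of 1.92 by the authors' deposited table (adjusted p = 0.0179). Il6st, which codes for gp130, fell from 4173 and 4344 to 1955 and 1376, with a log2 fold change of -1.35 by the authors' deposited table (adjusted p = 0.000346). Ifngr2, the signalling chain of the interferon gamma receptor, fell from 909 and 785 to 61.3 and 180, with a log2 fold change of -2.82 by the authors' deposited table (adjusted p = 3.78e-08). The cTKO libraries of Ifngr2 differed widely, and limma gave -2.22 without the larger and -3.76 without the smaller one (adjusted p = 0.122 and 0.0599). Its partner Ifngr1 had a log2 fold change of -0.070 by the authors' deposited table (adjusted p = 0.911).

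Few cytokine genes themselves were measurable. Of 20 ligands, 7 were tested and 1 rose, beside 9.77% called higher among all tested genes. This was Ifng, with 28.0 and 34.6 normalised reads in WT against 203 and 209 in cTKO. Ifng was 6.60-fold higher by the authors' deposited table (adjusted p = 9.04e-07). Il2 had at most 12.4 normalised reads, Il15 at most 10.8 and Il7 at most 18.2 in any library.

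**Figure D5:**
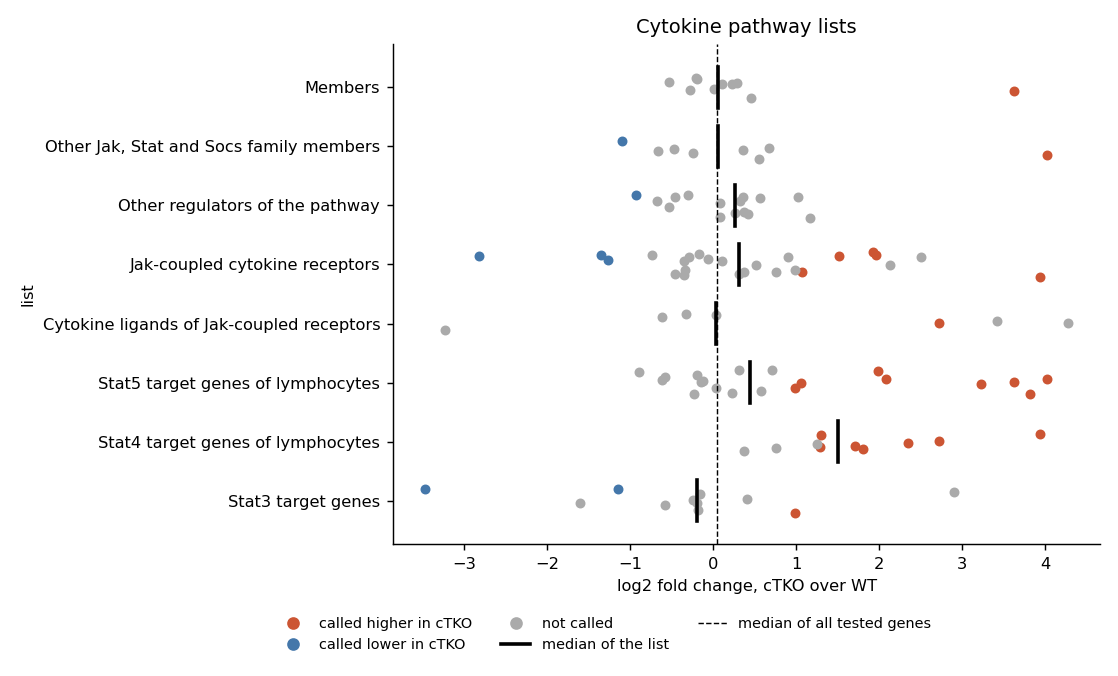
Log2 fold changes, cTKO over WT, from the authors' deposited table for the tested genes of 8 lists, the members included; red and blue points were called higher and lower, black bars are list medians and the dashed line is the median of all tested genes. The list of Stat4 targets lies to the right, with a median of 1.51, beside a median of 0.039 over all tested genes. The lists were chosen with earlier results of these data known.

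Target genes of the Stat proteins were counted list by list, beside 9.77% called higher and 3.61% lower among all tested genes. The lists were chosen with earlier results of these data known, so these counts describe the lists and are no test. Of the 17 Stat5 targets that are not members, 7 rose, 0 fell and 10 did not pass (median log2 fold change 0.58 by the authors' deposited table). They were the survival genes Bcl2 (log2 fold change 0.99 by the authors' deposited table) and Bcl2l1 (1.05), the kinase gene Pim1 (1.98), Socs2 (4.02), the cytotoxic protease gene Gzmb (3.22) and the transcription factor genes Prdm1 (3.82) and Eomes (2.08). Gzmb had 385 and 160.5 normalised reads in WT against 2843 and 2275 in cTKO, and limma gave 3.98 without the larger and 2.72 without the smaller WT library. Prdm1 had 76.6 and 64.7 normalised reads in WT against 1313 and 682 in cTKO. Others such as Myc (log2 fold change -0.12), Ccnd2 (0.033) and Pim2 (-0.59) did not pass by the authors' deposited table.

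Beside 9.77% called higher among all tested genes, 7 of 10 Stat4 targets rose and 3 did not pass. They were Ifng, Il12rb2, the interleukin-18 receptor genes Il18r1 (log2 fold change 1.29 by the authors' deposited table) and Il18rap (2.34), the transcription factor genes Tbx21 (1.71) and Ikzf3 (1.81), and the kinase gene Map3k8 (1.30). Tbx21, the master regulator of type 1 responses, had 1712 and 1918 normalised reads in WT against 5928 and 5922 in cTKO. Ifng, Il12rb2 and Tbx21 are also counted in the ligand, receptor and marker lists. This list too was chosen with earlier results of these data known, so its share called higher is no test.

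Beside 9.77% called higher and 3.61% lower among all tested genes, 1 of 10 tested Stat3 targets that are not members rose and 2 fell. The riser was Bcl2, which also stands in the Stat5 list, and the others were the AP-1 genes Fos (log2 fold change -3.48 by the authors' deposited table) and Junb (-1.14). Fos had 90.6 and 394 normalised reads in WT against 16.6 and 27.3 in cTKO, so the WT libraries differed between themselves more than 4-fold. In limma its log2 fold change was -4.15 without the larger and -2.04 without the smaller WT library, and -2.75 without the larger cTKO library (adjusted p = 0.000961, 0.133 and 0.395).

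Markers of cell states moved with the genotype beside these genes. The lists overlap, since Il2rb, Tbx21 and Eomes, among others, are counted both here and above. Among all tested genes 9.77% were called higher and 3.61% lower. All 10 effector and memory CD8 markers, Il2rb and Tbx21 among them, were called higher by the authors' deposited table, and their summed normalised reads were 26784 and 36625 in WT against 144843 and 155494 in cTKO. Of 6 markers of naive cells 3 fell, and the sums over all 6 were 94347, 117602, 55196 and 76142. Of 12 natural killer cell markers 7 rose and 1 fell, with sums of 8616 and 6429 in WT against 17062 and 15060 in cTKO. The 7 were Klrb1c, Klra3, Klra8, Tyrobp, Gzma, Eomes and Itga2. Klrb1c had 148, 137, 1330 and 1094.5 normalised reads, and Tyrobp 23.1, 26.6, 364 and 250. Fcer1g fell, with 77.4, 47.3, 8.3 and 11.2. Prf1, which was not called, had 5685, 3538, 3838 and 3985 normalised reads, and so made up most of the WT sums of this list. The receptor gene Ncr1, which was not called, had 1.6, 4.6, 18.2 and 1.2 normalised reads. Of 8 tested myeloid and dendritic markers 2 rose, Itgam and Itgax. The sums over that list were 166, 167, 2529 and 876, and Adgre1, Cd14, Ly6g and Siglech had under 5 normalised reads in every library. Of the other markers on it, S100a8 had 0, 0, 18.2 and 0 and S100a9 had 0, 0, 15.7 and 0, and Csf1r had 1.6, 3.5, 20.7 and 7.5. Lyz2 had 16.5, 12.7, 35.6 and 7.5, Flt3 had 1.6, 9.2, 1.7 and 2.5, and Xcr1 had 69.2, 55.4, 61.3 and 53.4. Itgam had 28.0, 34.6, 359.5 and 171.4, and Itgax 46.1, 50.8, 2012 and 632.

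Of 9 tested B cell markers 4 fell, beside 9.77% called higher and 3.61% lower among all tested genes. Those that fell were Cd74, Cd79b, H2-Aa and H2-Ab1. The sums over that list were 2406, 2336, 1286 and 452 normalised reads, and Pax5 and Blk were under 5 throughout. Cd22, which was not called, had 171, 151, 748 and 47.2, and so made up most of the sum in the larger cTKO library. Of 3 tested markers of CD4 and regulatory T cells 1 rose, with sums of 133, 141, 221 and 142. The riser was Zbtb7b, with 12.4, 12.7, 91.1 and 42.2 normalised reads, while Ctla4, which was not called, made up most of each sum. None of 7 T and CD8 markers was called, with sums of 156366, 144484, 91852 and 135280. Of 4 proliferation markers 3 rose, with sums of 1091, 685, 5682 and 1744. In bulk RNA of sorted cells, more cells of one state and more RNA of a gene per cell cannot be told apart. The part of these markers in the values of Cish, the receptors and the targets was not tested.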

How the data were processed

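The files give 1 table, in which the authors compared CD8 T cells of the 2 genotypes. The authors used STAR and DESeq2, with the builds mm10 and GRCm38.p6, per the submitters' processing notes. How reads were annotated, counted and assigned to strands is not stated there. Per the file headers, the authors gave each gene's mean, a signal in normalized counts. That this mean covers the 4 libraries, with counts scaled by size factors, was inferred from the values. Each gene's log2 fold change, SE (also log2), test score, p-value and adjusted p-value were used as the authors deposited them. The table states no direction, and its sign was taken as cTKO over WT, since the 3 deleted H1 genes are negative. The main calls are the authors', at an adjusted p under 0.05.

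Whole reads per library were solved from mean, fold change and SE by repeating the authors' fit, for 18001 of 18153 genes with reads (99.2%). For 119 genes, Jak1, Il2rb and Il2rg among them, several solutions met the fold change and the fitted dispersion decided. Pim1 was not solved. Size factors were 1.21, 0.866, 1.21 and 0.805, and median ratios of the recovered reads gave the same within 0.0745%. The solver and the limma step were tested on simulated data. limma (version 3.58.1, R 4.3.3) was fitted to log2(normalised reads + 1) of all 12911 tested genes with reads, with Benjamini-Hochberg adjustment. Python 3.11.15, numpy 2.4.6, pandas 2.3.3 and scipy 1.17.1 were used. Intervals are 95% normal intervals from the deposited SE. The p-values rest on 2 animals per genotype, and the spread used for a gene is drawn in part or whole from other genes. Fits without 1 library hold 1 animal of a genotype and measure no spread within it.

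Gene positions and promoter windows are from RefSeq (GRCm38.p6), matched by Entrez identifier for all 10 members. One further gene and list are not reported here. The members and lists were chosen with earlier results of these data known. Named were all members, the genes of the other lists past the threshold (up to 12 per list), Tyk2, Stat2, Stat6, Socs2 and the genes of the common gamma chain receptors. Other genes, such as those given as not passing or as marker values, were named after their values were seen. Alternatives were re-centring, no filter on the mean, limma with a pseudocount of 1 or 4, leaving out each library and a threshold of 0.01, and, added after seeing the data, limma with the larger or smaller library as a term.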

Additional observations from a re-analysis of the deposited data

How the results depend on the processing

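No paired analysis by animal number was possible because the 2 genotypes share no numbers. A limma fit with the larger or smaller library of a genotype, and so the sex, as a term was added after seeing the data. With 1 residual degree of freedom it drew each gene's spread from all genes, and it called 17.5% of genes, against 10.3% without the term. It kept the call and direction of all 10 members and of 29 of 31 named pathway genes, and turned Il2ra (-0.0897) and Il9r (-0.10), neither of them called. Re-centring on the median of abundant genes (mean normalized count of 100 or more, log2 -0.10) changed no member's call. It called 2 regulators higher, against 0 in the main calls (Cbl and Pias3). Removing the filter on the mean and limma with a pseudocount of 1 or 4 kept the call and direction of all 10 members. In limma fits without each library in turn, the log2 fold change ranged from 3.43 to 3.79 for Cish, from -0.0283 to 0.23 for Jak2, from -0.20 to 0.25 for Stat5a, from -0.62 to 0.12 for Stat5b, from -0.21 to 0.57 for Socs1 and from -0.40 to 0.0472 for Socs3, so the sign of the last 5 turned in at least 1 of these fits. The number of members called higher ranged from 0 to 1, with 0 without either cTKO library. Among low receptor genes, Il2ra turned to -0.0897 and -0.0573 with limma (pseudocounts 1 and 4) and ranged from -1.20 to 1.02 without each library, and Il9r turned to -0.10 (pseudocount 1) and ranged from -1.89 to 1.68. Of 31 named pathway genes outside the members, 3 lost the call in limma with a pseudocount of 1, namely Bcl2, Il2rg and Ptpn6. At an adjusted p under 0.01, 824 genes were higher and 230 lower, against 1268 and 468 at 0.05. The causes of these shifts were not tested.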

Other observations

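Genes next to the members were read as a description of their surroundings. Within 250 kb either side of the 10 members, 83 other genes were tested, of which 6 were called higher and 1 lower in the authors' deposited table. Over all tested genes the shares were 9.77% higher and 3.61% lower, so these neighbours as a set were not called more often. Of the 6, 3 lay around Cish, where 3 of 10 tested neighbours were called higher and 0 lower, beside 9.77% higher among all tested genes. They were Mapkapk3, a stress kinase gene (log2 fold change 0.85 by the authors' deposited table, SE 0.29, adjusted p = 0.0347), Hemk1 (1.44, SE 0.43, adjusted p = 0.010) and the calcium channel gene Cacna2d2 (2.90, SE 1.02, adjusted p = 0.0376). Cacna2d2 was low, with 4 and 7 reads in the larger and smaller WT libraries against 77 and 15 in the cTKO libraries. The fold changes of all 3 neighbours were smaller than that of Cish, and these genes were named after their values were seen. Around Socs3, 2 of 11 tested neighbours were called higher and 0 lower in the authors' deposited table, while Socs3 itself was not called. The 2 were the proliferation genes Tk1 (log2 fold change 1.404) and Birc5 (1.202).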
